A study of Mus musculus with 64 samples.

Results

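Skeletal muscle of 20-month-old mice with body-wide inactivation of Myc was compared with muscle of wild-type mice of the same age by messenger RNA sequencing. The comparison used 10 of the 64 libraries of the series, chosen by their labels: 5 muscle libraries labelled MycKO and 5 labelled WT, all at 20 months. The other libraries came from muscle at 5 months, liver and omental adipose tissue. The mice labelled MycKO (KO here) came from a cross of a B6.129 line carrying the cre/ERT2 transgene in the Gt(ROSA)26Sor locus, a tamoxifen-activated Cre recombinase driven from a promoter active in most cell types, with a floxed Myc line whose name holds B6.129 and B6.129S6. The WT mice were C57/B6, so the strain background and the loss of Myc cannot be told apart. Mice of both genotypes are labelled as given tamoxifen (75 mg/kg in corn oil) by 5 daily intraperitoneal injections around weaning, once they weighed at least 15 g, so tamoxifen was shared by the groups while the Cre transgene was not. Libraries are named by their codes (K or W for the genotype, S for muscle). Those codes hold the number 18, while the labels give 20 months, which is used here. The labels do not say which muscle was taken.

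Myc is a transcription factor that binds DNA as a partner of Max, at sites that include the E-box CACGTG. Its best known targets serve ribosome production, translation, mitochondrial biogenesis and the cell cycle, and it is held at a low level in resting adult muscle fibres. The Mnt and Mxd proteins compete for Max and oppose Myc, while Mlxip and Mlxipl belong to a parallel, nutrient-responsive arm that pairs with Mlx.

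The 10 libraries held 17.6 to 22.4 M reads (M, mega) on genes, with a median of 19.8 M, and detected 17206 to 17823 genes each. Values are given as CPM, after the header of the deposited table. The column sums of these libraries were 1.08 to 1.32 M rather than 1 M, so this CPM is a read signal scaled per library. Muscle fibre markers (Acta1, Ckm, Myh4 and 11 others) summed to 174480 to 193130 CPM in the KO libraries and 168650 to 211150 CPM in the WT libraries, as the tissue label has it. All 10 libraries carried transcripts of Y-linked genes, with Xist at 0 to 0.121 CPM. Some libraries stood apart from their group. W18S42 (WT) held hepatocyte transcripts at a summed 2683 CPM, against 0 to 41.3 CPM in the other 9 libraries. Neutrophil markers summed to 677 CPM in K18S48 (KO) and 113 CPM in W18S45 (WT), while the other 8 libraries were at 0.338 to 6.79 CPM. Haemoglobin and other erythroid markers summed to 2210 CPM in K18S48 and 1117 CPM in K18S62 (KO). They were at 161 to 680 CPM in the remaining libraries. On the first principal component, which held 38.5% of the variance, K18S62 (35.5) and K18S48 (30.2) lay at one end and W18S42 (-32.9) and W18S66 (-28.8) at the other, with the remaining KO and WT libraries interleaved. W18S41 stood alone on the second component (39.0, with 18.1% of the variance). Some of the results below, not all, are given with and without W18S42 and K18S48. Nothing in the labels beyond the library codes says that the libraries are separate mice, and the p-values measure the spread between these libraries.

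Myc transcripts did not separate the genotypes in old muscle. Myc was read at 10.2, 5.46, 9.61, 1.75 and 2.899 CPM in K18S48, K18S61, K18S62, K18S63 and K18S64, and at 13.1, 4.97, 8.70, 6.10 and 6.65 CPM in W18S41, W18S42, W18S45, W18S66 and W18S72. All values listed below follow this order of libraries. K18S48 and K18S62 lay above 4 of the 5 WT libraries, so KO here means a library labelled MycKO. The means were 5.98 ± 3.83 CPM (SD, n = 5) and 7.91 ± 3.21 CPM (SD, n = 5), a difference of -0.49 in mean log2(CPM + 1) (exact permutation test, two-sided, p = 0.310). The table has 1 value per gene, so reads from deleted and retained parts of Myc are not separated.

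Transcripts from beside Myc and from the locus of the transgene did differ. Pvt1, a long noncoding RNA gene beside Myc, was read at 3.73, 5.33, 4.06, 4.31 and 4.24 CPM in the KO libraries and at 4.06, 1.76, 2.901, 2.15 and 3.15 CPM in the WT libraries, a difference of 0.51 (exact permutation p = 0.0159, and 0.0238 adjusted over Myc, Pvt1 and Gt(ROSA)26Sor, n = 5 and 5). Only W18S41 reached the KO range. Transcripts of Gt(ROSA)26Sor, the locus that holds the Cre transgene, were at 1.99, 1.02, 2.75, 0.873 and 1.34 CPM in KO and at 3.11, 5.39, 5.11, 4.65 and 3.60 CPM in WT. The groups did not overlap, and the difference of -1.08 had the smallest p that 252 splits allow (exact permutation p = 0.00794, adjusted 0.0238, n = 5 and 5). In the fit across all genes neither passed (adjusted p = 0.259 for Pvt1 and 0.134 for Gt(ROSA)26Sor, limma), while in old liver and old adipose tissue both passed, with Pvt1 at 0.95 and 0.97 and Gt(ROSA)26Sor at -1.03 and -0.93.

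In 12505 genes the value was above 1 CPM in 5 or more of the 10 libraries. Of these, 3 were called changed (limma, Benjamini-Hochberg adjusted p under 0.05), which is 0.024% of the genes tested: C130046K22Rik and Kcnh6 rose (0.016%) and Cacna2d4 fell (0.008%). At an unadjusted p under 0.05 there were 882 genes higher in KO (7.05%) and 1207 lower (9.65%), 16.7% in both directions. This split moved with the scaling: it was 1404 higher and 334 lower when each library was rescaled to a sum of 1 M, and 1069 higher and 1013 lower with TMM factors. On the recovered whole reads, edgeR called the same 3 genes, and DESeq2 called 158 (1.26%), of which 125 were higher (1%) and 33 lower (0.264%), with those 3 among them. Gt(ROSA)26Sor was also called by DESeq2 (adjusted p = 0.00329), and Pvt1 was not (0.134). Leaving out W18S42 and K18S48 together left only C130046K22Rik called. At an unadjusted p under 0.05, 623 genes were then higher (4.98%) and 466 lower (3.73%).

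**Figure D1:**
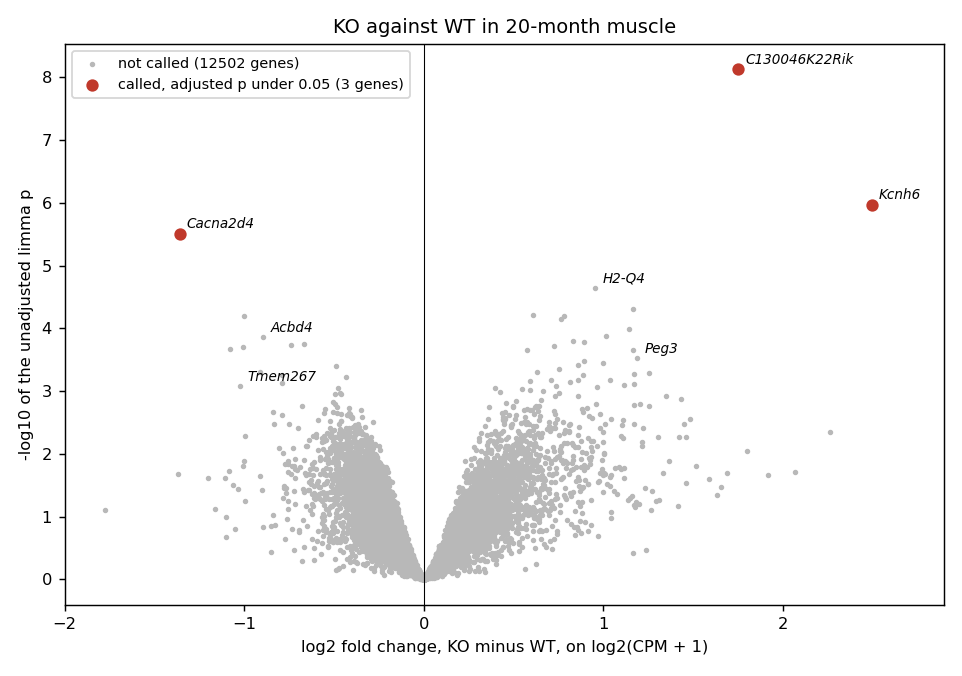
Each point is 1 of the 12505 genes tested, with the log2 fold change of KO against WT on the log2(CPM + 1) scale on the x axis and -log10 of the unadjusted limma p on the y axis. The 3 called genes, C130046K22Rik, Kcnh6 and Cacna2d4 (red), lie apart from the rest, and H2-Q4 is the gene of smallest p among those not called.

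Kcnh6 encodes a voltage-gated potassium channel of the ether-a-go-go-related family (chr11:106008044-106035595, GRCm38.p6). It was read at 12.8, 8.37, 23.2, 7.91 and 9.66 CPM in the KO libraries and at 0.879, 1.64, 1.10, 0.550 and 2.23 CPM in the WT libraries. Every KO library lay above every WT library, with means of 12.4 ± 6.32 CPM (SD, n = 5) and 1.28 ± 0.663 CPM (SD, n = 5). The log2 fold change was 2.49 (SE 0.28, adjusted p = 0.00673, limma), and Kcnh6 was called without each of the 10 libraries in turn (adjusted p 0.00364 to 0.0389). It missed the threshold without a filter on low values (adjusted p = 0.0671) and without W18S42 and K18S48 (0.0746). In muscle at 5 months the difference was 0.82 (adjusted p = 0.9999), and the difference between the ages was not called either (1.68, adjusted p = 0.999).

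C130046K22Rik is a long noncoding RNA gene (chr11:103697724-103725573, plus strand) that overlaps the start of Gosr2, a Golgi transport gene on the other strand. It was read at 2.11, 2.03, 2.57, 2.67 and 2.47 CPM in the KO libraries (32 to 49 reads each) and at 0 in all 5 WT libraries. Against a floor of 3 reads per library (0.150 to 0.203 CPM, counting error only), the KO level was at least 11.7-fold higher. The log2 fold change on the log2(CPM + 1) scale was 1.75 (SE 0.12, adjusted p = 9.34e-05, limma), and the call held without each library in turn (adjusted p 0.000465 to 0.000922). Gosr2 itself was at 77.2 CPM in KO and 77.4 CPM in WT (adjusted p = 0.999). Between KO and WT in old liver Gosr2 was among the genes called (limma), and in old adipose tissue it was not. Whether strand was used in the authors' counting is not given in the sources used here, so reads of the overlapping part cannot be assigned to a strand. C130046K22Rik also rose in old liver (1.39, adjusted p = 0.0170) and old adipose tissue (1.44, adjusted p = 0.0325). In muscle at 5 months it differed by 0.73 (adjusted p = 0.9999, limma), which was not called. The difference between the ages was 1.01 (adjusted p = 0.999) and was not called either.

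Cacna2d4 encodes an auxiliary alpha2delta subunit of voltage-gated calcium channels (chr6:119236524-119352407). Its values were 2.73, 1.90, 2.09, 3.93 and 2.25 CPM in the KO libraries and 10.4, 6.67, 8.01, 8.50 and 7.003 CPM in the WT libraries, with no overlap. The means were 2.58 ± 0.813 CPM (SD, n = 5) and 8.12 ± 1.48 CPM (SD, n = 5), and the log2 fold change was -1.36 with an SE of 0.17 (limma, adjusted p = 0.0130). The call was lost without K18S61, K18S62, W18S45 or W18S66 (adjusted p up to 0.0686, limma) and without the filter on low values (0.119). It was also lost in the fit over all 20 muscle libraries (0.186) and without W18S42 and K18S48 (0.0746). With a covariate for code numbers of 60 or more (K18S61 to K18S64, W18S66 and W18S72) it was lost too (0.0629). Most KO libraries but fewer WT libraries had such codes, so that covariate partly followed genotype. Lrtm2 lies within Cacna2d4 on the other strand and was at 1.85 and 3.93 CPM (-0.77, adjusted p = 0.277). In muscle at 5 months Cacna2d4 differed by -1.31 (adjusted p = 0.652), and the effects at the 2 ages differed by -0.05 (adjusted p = 0.999). Neither Kcnh6 nor Cacna2d4 passed the filter of the fits with liver and adipose tissue.

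The 250 bases before the start that the RefSeq promoter table gives are shown for both genes that rose, with any searched motif in capitals (RefSeq, GRCm38.p6, plus strand; chr11:106007898-106008147 for Kcnh6 and chr11:103697474-103697723 for C130046K22Rik). The table's start for Kcnh6 lies inside the gene as given above, so the last part of that window is within the gene. Neither window holds the E-box CACGTG, the FoxO motif GTAAACA or the interferon response element core (GAAA, any 2 bases, GAAA) on either strand, so neither has capitals.
Kcnh6: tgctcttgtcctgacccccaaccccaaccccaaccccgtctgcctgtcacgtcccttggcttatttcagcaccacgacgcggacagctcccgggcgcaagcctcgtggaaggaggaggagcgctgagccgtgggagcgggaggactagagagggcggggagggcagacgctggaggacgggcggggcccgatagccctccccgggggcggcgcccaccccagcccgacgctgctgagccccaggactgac
C130046K22Rik: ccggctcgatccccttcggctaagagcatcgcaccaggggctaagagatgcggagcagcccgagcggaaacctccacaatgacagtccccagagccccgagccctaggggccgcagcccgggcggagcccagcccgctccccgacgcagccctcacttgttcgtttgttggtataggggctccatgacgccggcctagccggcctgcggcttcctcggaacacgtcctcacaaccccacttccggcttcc

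Short of the limma threshold come the genes of smallest p among those above a mean of 5 CPM whose groups did not overlap. They are given as values, not as limma calls. DESeq2 on whole reads, which called 1.26% of all genes, called each gene named here and in the next paragraph (adjusted p 2.47e-06 to 0.0177). Over all genes tested, 377 had groups that did not overlap (3.01%), with KO above WT in 154 (1.23%) and below in 223 (1.78%). H2-Q4, a nonclassical MHC class I gene with near-identical neighbours between which reads may be split, was at 38.7, 41.05, 35.2, 38.7 and 28.1 CPM in KO and 17.9, 18.5, 13.5, 18.4 and 23.3 CPM in WT (0.96, adjusted p = 0.0702, limma). Zfp36l1, an RNA-binding protein that speeds decay of AU-rich messages, had means of 52.95 ± 4.98 and 34.4 ± 3.60 CPM (SD, n = 5 each; 0.61, adjusted p = 0.0992). Cecr2, a chromatin remodelling factor, was at 37.3 and 21.5 CPM (0.77, adjusted p = 0.1003). Vwf, the von Willebrand factor of endothelial cells, was at 56.4 and 29.8 CPM (0.89), Svep1, an extracellular adhesion protein, at 15.1 and 8.19 CPM (0.83), and Fryl at 62.8 and 36.97 CPM (0.72), each with an adjusted p of 0.134. The imprinted gene Peg3 was at 316, 265, 456, 217 and 185 CPM in KO and 134, 115, 178, 94.4 and 94.3 CPM in WT (1.19, adjusted p = 0.171). Every KO library of Peg3 lay above all WT libraries, and K18S62 was highest. Amotl2, a junction protein that binds the Hippo effector YAP, was at 65.1, 75.9, 97.4, 46.2 and 52.7 CPM in KO and 30.03, 23.2, 33.0, 33.9 and 43.8 CPM in WT (0.998, adjusted p = 0.187).

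In the other direction, Acbd4, an acyl-CoA binding protein, was at 15.6, 18.6, 10.7, 18.7 and 21.2 CPM in KO and 27.1, 35.9, 32.1, 28.5 and 35.1 CPM in WT (-0.89, adjusted p = 0.134, limma). K18S62 was lowest and all WT libraries lay above all KO libraries. St8sia5 was at 26.6 ± 4.35 and 42.6 ± 4.90 CPM in KO and WT (SD, n = 5 each; -0.67, adjusted p = 0.134). Sim1, a basic helix-loop-helix transcription factor, was at 6.06 ± 1.02 and 10.7 ± 1.59 CPM (SD, n = 5 each; -0.74, adjusted p = 0.134). Cacng1, the gamma subunit of the skeletal muscle calcium channel, was at 229 ± 19.6 and 322 ± 36.2 CPM (SD, n = 5 each; -0.49, adjusted p = 0.191). Tmem267 was at 14.4, 12.5, 8.78, 16.0 and 14.5 CPM in KO and 32.9, 19.6, 22.3, 48.05 and 22.3 CPM in WT (-1.02, adjusted p = 0.237), and differed by -1.76 at 5 months (adjusted p = 0.652). Strap was at 139 and 188 CPM, Afmid at 4.28 and 8.29 CPM, Nat9 at 10.8 and 15.4 CPM and Rnf11 at 118 and 167 CPM, with adjusted p from 0.222 to 0.254.

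**Figure D2:**
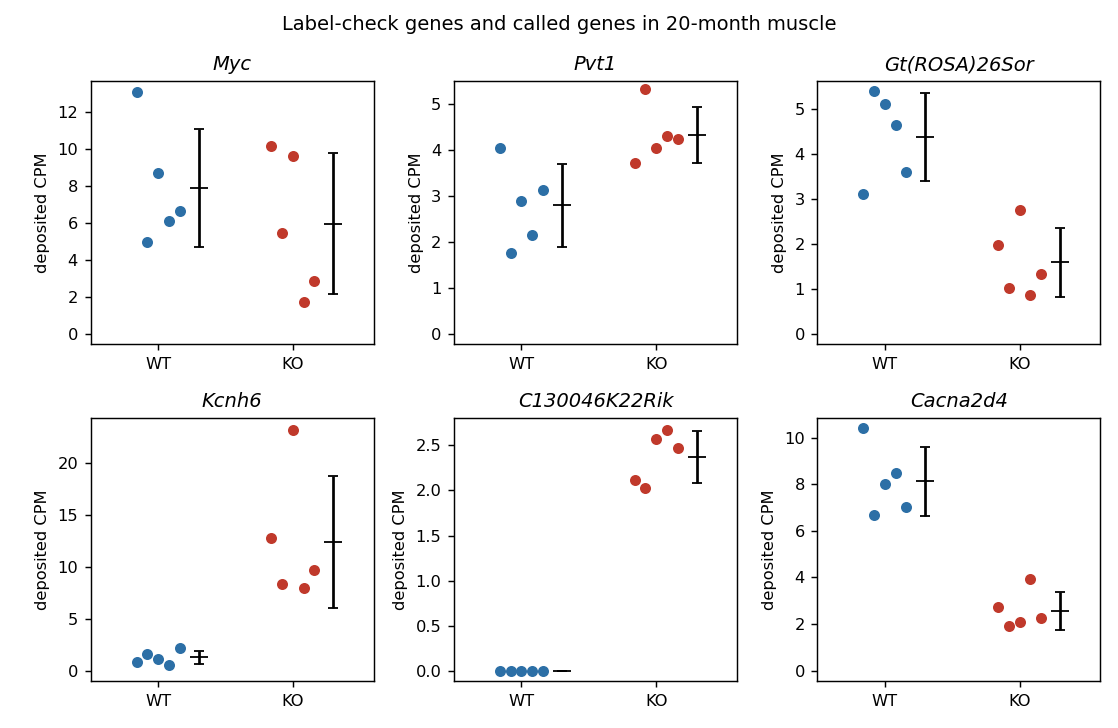
Deposited CPM (y axis, linear) of Myc, Pvt1, Gt(ROSA)26Sor and the 3 called genes in the 5 WT libraries (blue) and 5 KO libraries (red), 1 point per library, with the group mean and SD as a bar beside the points. Myc and Pvt1 overlap between the genotypes, while Gt(ROSA)26Sor, Kcnh6, C130046K22Rik and Cacna2d4 do not.

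Genes with small p were unevenly placed on the chromosomes, which were examined after their values were seen and carry no test. Over all genes, 50 had an unadjusted p under 0.001 (0.4%), 36 higher (0.288%) and 14 lower (0.112%). Chromosome 11 held 16 of these among 1052 genes tested (1.52%), and 11 of the 16 lay between 100 and 120 Mb, among 250 genes tested (4.4%): Acbd4, C130046K22Rik, Gm11665, 1700052K11Rik, Kcnh6, Cacng1, Cd300ld, Nat9, Exoc7, Afmid and Cbx2. In that stretch 8.8% of genes had groups that did not overlap, against 3.12% on the rest of chromosome 11 and 3.01% of all genes. On chromosome 6, the 110 to 130 Mb stretch held 4 such genes among 151 tested: Gt(ROSA)26Sor, Cacna2d4, Cecr2 and Vwf. On chromosome 17, 34 to 37 Mb, where the MHC genes lie, held Tap1, H2-D1, H2-Q4 and H2-Q7 among 89 tested. The transgene is in the Gt(ROSA)26Sor locus of the chromosome 6 stretch, and strain, transgene and loss of Myc cannot be told apart here.

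**Figure D3:**
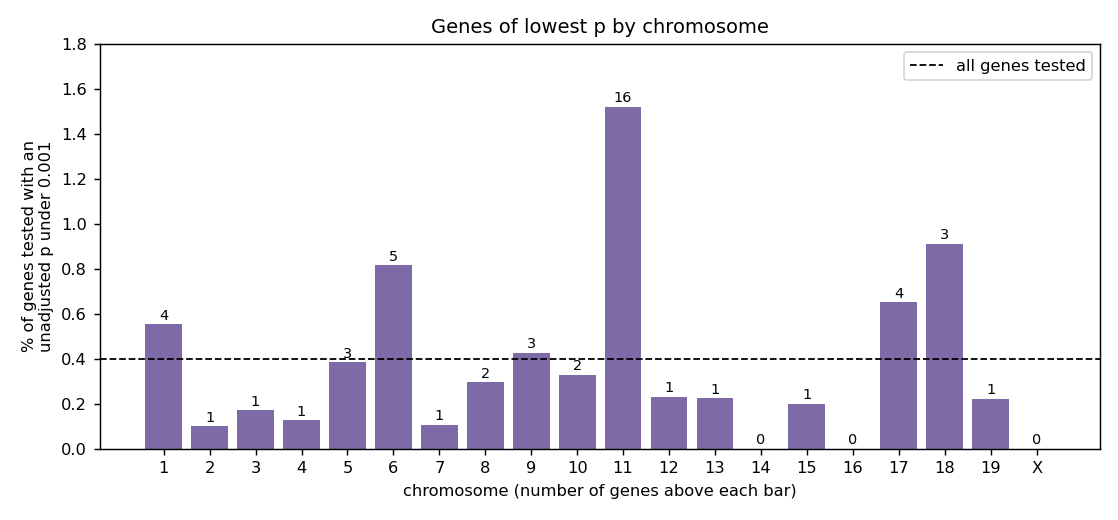
Percentage of tested genes with an unadjusted p under 0.001 on each chromosome, with the number of such genes above each bar and the share of all genes tested (0.4%) as a dashed line. Chromosome 11 has the tallest bar, at 16 genes (1.52%).

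Within the Myc network itself, 12 of 15 genes could be tested, and no member was called by limma or DESeq2. Mycn and Mycl, the paralogs of Myc, were below the filter at 0.54 and 0.43 CPM in KO and 0.56 and 0.40 CPM in WT. Max, the obligate partner, was at 30.6 ± 5.76 and 28.8 ± 1.83 CPM (SD, n = 5 each; 0.07, adjusted p = 0.766, limma). Mnt, a repressor that competes for Max, was at 33.5, 28.4, 47.8, 29.4 and 24.05 CPM in KO and 21.9, 18.4, 21.1, 20.8 and 26.1 CPM in WT (0.54, adjusted p = 0.257). K18S62 was highest and K18S64 lay within the WT range. Mlxip, the glucose-responsive partner of Mlx that predominates in muscle, was at 249 and 167 CPM (0.54, adjusted p = 0.257), Mxd1 at 10.3 and 6.80 CPM, and Mlxipl at 52.4 and 68.7 CPM.

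Genes of oxidative phosphorylation (OXPHOS), the mitochondrial chain that makes most ATP in muscle, lay on 1 side. No member was called by limma or DESeq2. All 77 tested subunit genes had a fold change below 0, where 55.4% of all genes did, and 59 (76.6%) were lower at an unadjusted p under 0.05 against 9.65% of all genes. Their median fold change was -0.325 against -0.033 over all genes. In no subunit gene did the groups separate fully. Ndufa13, a complex I subunit, was at 174, 164, 145, 179 and 215 CPM in KO and 236, 299, 228, 246 and 201 CPM in WT (-0.46, adjusted p = 0.257, limma). Uqcr11 of complex III was at 123, 106, 102, 133 and 150 CPM in KO and 167, 241, 169, 170 and 138 CPM in WT (-0.51, adjusted p = 0.257). In both, W18S42 was highest and K18S62 lowest, and K18S64 and W18S72 crossed. Cox7a1, the muscle form of a complex IV subunit, had means of 166 ± 22.3 and 230 ± 42.8 CPM (SD, n = 5 each), and Atp5g1, a subunit of the ATP synthase ring, 486 and 625 CPM.

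By library, the median over the OXPHOS genes of log2(CPM + 1), relative to each gene's mean over the 10 libraries, was -0.14, -0.28, -0.32, -0.16 and 0.07 in KO and 0.15, 0.55, 0.13, 0.12 and -0.07 in WT. Thus 4 KO libraries lay below all 5 WT libraries, and K18S64 lay above W18S72. Without W18S42 and K18S48 all 77 genes stayed below 0, with a median of -0.24, and 26 were lower at p under 0.05 (3.73% of all genes). The count was 34 to 68 when 1 library was left out and 25 with libraries rescaled to a sum of 1 M (2.67% of all genes). It was 23 with the covariate for code numbers of 60 or more.

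The ribosomal lists went the same way by smaller amounts. Of the 78 mitochondrial ribosomal protein genes, which build the ribosomes that translate mitochondrial messages, all had a fold change below 0 and 33 (42.3%) were lower at p under 0.05, with a median of -0.25. Mrps12 was at 21.9, 21.8, 20.2, 28.4 and 24.7 CPM in KO and 34.4, 32.2, 33.2, 34.9 and 28.2 CPM in WT (-0.47, adjusted p = 0.254, limma), and only K18S63 and W18S72 crossed. Mrps12 was the 1 member that DESeq2 called lower (adjusted p = 0.0328), against 0.264% of all genes. Without W18S42 and K18S48, 73 genes stayed below 0 and 8 were lower at p under 0.05 (3.73% of all genes). The count was 11 (without W18S42) to 49 (without W18S72) when 1 library was left out, and 7 with libraries rescaled to a sum of 1 M (2.67% of all genes). Of the 79 cytosolic ribosomal protein genes, a classical group of Myc targets, 78 were below 0 and 20 (25.3%) were lower at p under 0.05, with a median of -0.26. Rps2 was at 532 ± 41.7 and 687 ± 109 CPM (SD, n = 5 each; -0.36, adjusted p = 0.257), and the count was 11 without W18S42 and K18S48 and ran from 4 (without K18S61) to 57 (without W18S72) when 1 library was left out. It was 3 with libraries rescaled to a sum of 1 M and 3 with the covariate for code numbers of 60 or more. In the fit over all 20 muscle libraries it was 2 of 79, where 8.44% of all genes were lower. Ribosomal protein genes have many processed pseudogenes that can take part of their reads. Ribosome biogenesis and nucleolar genes, the targets most tied to Myc, were nearer the background: 35 of 48 were below 0 and 8 (16.7%) were lower at p under 0.05, with a median of -0.08. Dkc1, a pseudouridine synthase of small nucleolar particles, was at 20.6 and 27.7 CPM (-0.40, adjusted p = 0.266).

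Transcript length moved with these lists. With the genes in 4 equal classes of transcript length, the median fold change ran from -0.14 in the shortest class through -0.05 and -0.002 to 0.07 in the longest, and the share lower at p under 0.05 ran from 17.5% to 4.09%. The median lengths of the OXPHOS and cytosolic ribosomal protein genes were 1003 and 1059 bases, against 3458 over all genes. Within the shortest class, 76.6% of OXPHOS genes, 53.5% of mitochondrial and 25% of cytosolic ribosomal protein genes were lower at p under 0.05, against 15.4% of the other 2861 genes of that class, with medians of -0.33, -0.30, -0.26 and -0.13. The median of the shortest minus the longest class was 0.38 in W18S42 and -0.24 in K18S62, and -0.15 to 0.13 in the other 8 libraries. The part of transcript length in these counts was not tested beyond these values.

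**Figure D4:**
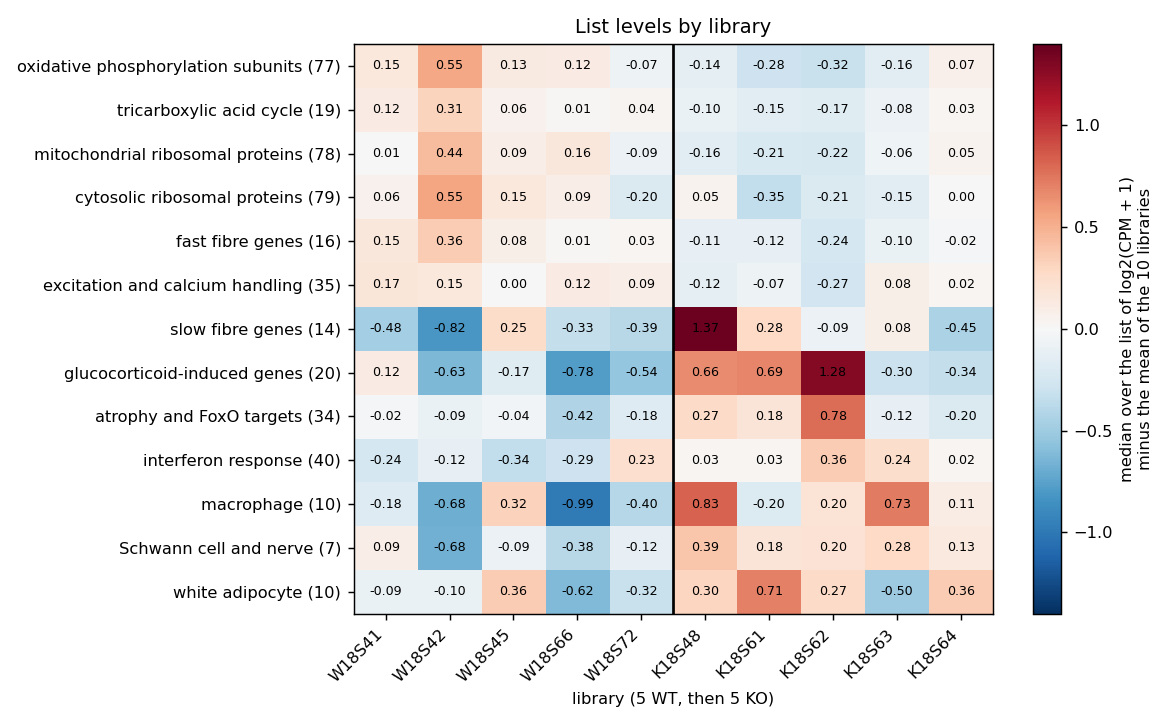
Heat map of list levels, with lists as rows (number of tested genes in brackets) and the 5 WT then 5 KO libraries as columns. Each cell is the median over the list of log2(CPM + 1) minus the mean of the 10 libraries, from blue (low) to red (high). The OXPHOS list is lowest in K18S62 and highest in W18S42, and the glucocorticoid list is high in K18S48, K18S61 and K18S62 but not in K18S63 and K18S64.

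The E-box was no more frequent in the promoters of the genes at lower levels. CACGTG, which reads the same on both strands and was searched in the 250 bases before each start in the RefSeq table (9958 of the 12505 genes matched), occurred in 6.02% of all 32851 windows, in 10.1% of the genes tested and in 10% of those lower at p under 0.05. It occurred in 6 of 64 matched OXPHOS genes (9.38%), in 5 of 69 mitochondrial ribosomal protein genes (7.25%), in 5 of 58 cytosolic ribosomal protein genes (8.62%) and in 4 of 43 ribosome biogenesis genes (9.30%). Of the genes higher at p under 0.05, 10.15% held it. Among lists with medians above 0 it was in 4 of 26 atrophy, 4 of 17 glucocorticoid-induced and 0 of 31 interferon response genes. Sites outside those 250 bases were not searched. The windows of Atp5g1 (chr11:96075632-96075881, minus strand) and Mrps18c, a protein of the small mitochondrial ribosomal subunit (chr5:100798509-100798758, plus strand), are shown as examples that hold it, in capitals, 44 and 163 bases before the start in that table. The gene record of Atp5g1 starts further upstream, so the last part of its window is within the gene.
Atp5g1: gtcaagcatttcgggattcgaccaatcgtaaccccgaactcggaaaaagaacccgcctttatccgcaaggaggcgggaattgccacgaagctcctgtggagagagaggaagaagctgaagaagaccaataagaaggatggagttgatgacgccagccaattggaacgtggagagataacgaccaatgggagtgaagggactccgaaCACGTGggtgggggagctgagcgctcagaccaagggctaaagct
Mrps18c: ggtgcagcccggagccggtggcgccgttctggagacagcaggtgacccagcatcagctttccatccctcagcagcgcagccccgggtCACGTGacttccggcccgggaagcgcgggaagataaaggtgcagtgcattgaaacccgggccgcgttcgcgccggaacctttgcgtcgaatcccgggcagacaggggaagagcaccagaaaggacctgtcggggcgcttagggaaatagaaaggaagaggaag
Atp5g1 was at 494, 429, 430, 507 and 570 CPM in KO and 648, 764, 609, 595 and 509 CPM in WT (-0.36, adjusted p = 0.260, limma), and Mrps18c at 17.9, 15.9, 15.0, 17.2 and 19.2 CPM in KO and 20.2, 32.4, 23.4, 21.9 and 19.1 CPM in WT (-0.42, adjusted p = 0.260). In both genes K18S64 crossed W18S72 and the other KO libraries lay below all WT libraries.

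Other energy pathways are set against the same shares of all genes (7.05% higher and 9.65% lower at p under 0.05). In the tricarboxylic acid cycle, 7 of 19 genes were lower and 1 higher (median -0.19), and Idh3a, a subunit of the NAD-dependent isocitrate dehydrogenase, was at 664 ± 59.0 and 843 ± 61.2 CPM with no overlap (SD, n = 5 each; -0.35, adjusted p = 0.257, limma). Glycolysis and glycogen genes had 7 of 27 lower and 2 higher (median -0.05). Without W18S42 and K18S48, 4 genes of the cycle and 1 of glycolysis were lower (3.73% of all genes). Ldha, lactate dehydrogenase, was at 2531 and 3207 CPM, while Pfkfb3, which makes the activator of phosphofructokinase, was at 1010 and 708 CPM. Of the 34 fatty acid oxidation and PPAR target genes, 5 were higher and 1 lower (median 0.07). Lpl, the lipase that releases fatty acids from blood lipoproteins, was at 1216, 1114, 1541, 896 and 1032 CPM in KO and 578, 670, 839, 840 and 831 CPM in WT (0.62, adjusted p = 0.257), with no overlap. In these lists DESeq2 called Idh3a lower (adjusted p = 0.0177), and Pfkfb3 (0.0421) and Lpl (0.0220) higher. Over all genes it called 0.264% lower and 1% higher.

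Genes induced in wasting muscle were at higher levels in some of the KO libraries. None was called by limma, while DESeq2 called 3 higher (Fbxo31, Foxo3 and Klf15), against 1% of all genes. Of the 34 atrophy and FoxO genes, 26 had a fold change above 0, where 44.6% of all genes did, and 11 (32.4%) were higher at p under 0.05 against 7.05% of all genes, with a median of 0.34. The median was 0.17 without K18S62, and the count ran from 6 (without W18S66) to 15 (without K18S64). Foxo3, a transcription factor of the programme, was at 112, 108, 184, 68.4 and 62 CPM in KO and 52.0, 46.6, 61.9, 48.6 and 71.3 CPM in WT (0.82, adjusted p = 0.257, limma). Fbxo32, the ubiquitin ligase atrogin-1, was at 2461, 2866, 4284.2, 2392 and 1838 CPM in KO and 708, 1797, 2463, 826 and 2272 CPM in WT (0.90, adjusted p = 0.268). Trim63, the ligase MuRF1, was at 3598, 2548, 5707, 1228 and 720 CPM in KO and 1752, 1157, 1665, 359 and 1035 CPM in WT (1.04, adjusted p = 0.341). K18S62 was highest in all 3, K18S48 and K18S61 were high for Foxo3 and Trim63, and K18S63 and K18S64 lay within the WT range there. Txnip, a thioredoxin inhibitor, was at 1481, 2012, 2578, 1644 and 1595 CPM in KO and 1094, 1437, 1499, 1226 and 1304 CPM in WT. Foxo6 went the other way, at 1.70 and 3.25 CPM (-0.68, adjusted p = 0.257), with no overlap.

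Glucocorticoid-induced genes followed the same 3 libraries. Of 20, 17 were above 0, and 11 (55%) were higher and 1 lower at p under 0.05, with a median of 0.86. None was called by limma, while DESeq2 called 2 higher (Ddit4 and Pik3r1), against 1% of all genes. Pik3r1, a regulatory subunit of PI3 kinase, was at 67.6, 128, 153, 51.5 and 54.3 CPM in KO and 30.6, 38.4, 51.4, 41.9 and 43.8 CPM in WT (0.996, adjusted p = 0.257, limma), without overlap. Fkbp5, a co-chaperone of the glucocorticoid receptor, was at 262, 321, 409, 117 and 143 CPM in KO and 99.6, 113, 200, 98.4 and 103 CPM in WT (0.93, adjusted p = 0.262). Ddit4, an inhibitor of mTORC1, was at 92.2, 157, 529, 18.3 and 17.8 CPM in KO and 19.1, 17.6, 24.8, 9.55 and 20.2 CPM in WT (2.07, adjusted p = 0.265). Cdkn1a, the cell cycle inhibitor p21, was at 229, 329, 465, 94.5 and 90.1 CPM in KO and 135, 54.6, 130, 45.05 and 58.2 CPM in WT (1.37, adjusted p = 0.261). Dusp1 went the other way, at 49.2, 24.9, 37.4, 37.6 and 54.4 CPM in KO and 132, 56.4, 58.5, 48.3 and 64.1 CPM in WT (-0.75, adjusted p = 0.262). The list's relative level was 0.66, 0.69 and 1.28 in K18S48, K18S61 and K18S62, -0.30 and -0.34 in K18S63 and K18S64, and -0.78 to 0.12 in WT. Without K18S62 its median was 0.55 and 6 genes were higher at p under 0.05, and without W18S42 and K18S48 these were 0.71 and 3 (4.98% of all genes).

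Contractile genes are given by fibre type. None was called by limma, while DESeq2 called Tpm1 lower (adjusted p = 0.0350), against 0.264% of all genes. Of 16 fast fibre genes, 6 were lower (9.65% of all genes) and 0 higher at p under 0.05 (median -0.21). The count of 6 was 3 without W18S42 and K18S48 (3.73% of all genes), 3 with libraries rescaled to a sum of 1 M (2.67%) and 1 without a filter on low values (6.31%). The list's level, computed in the same way, did not overlap between groups (-0.24 to -0.02 in KO and 0.01 to 0.36 in WT). Pvalb, the calcium buffer of fast fibres, was at 6532, 5541, 5156, 6222 and 6806 CPM in KO and 8539, 11498, 8645, 7425 and 6931 CPM in WT (-0.49, adjusted p = 0.257, limma). Tpm1, the fast form of tropomyosin, was at 13065 ± 1623 and 18389 ± 3124 CPM (SD, n = 5 each), and Tnnc2, fast troponin C, at 6230.4 and 8049.6 CPM. Pvalb, Tpm1, Tnnc2 and Actn3 had no overlap, which is 4 of 16 against 1.78% of all genes with KO below. The slow fibre list had a median of 0.50, with 1 of 14 genes higher at p under 0.05 (7.05% of all genes). Its median was 0.20 without K18S48 and 0.14 without W18S42 and K18S48. Myh7, the slow myosin, was at 282, 56.0, 32.7, 61.2 and 18.9 CPM in KO and 17.5, 8.12, 71.0, 20.1 and 31.9 CPM in WT (1.26, adjusted p = 0.334), and K18S48 stood far above the rest. Which muscle was sampled was not given, and its part in these values was not tested.

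Excitation and calcium handling held the called Kcnh6. Besides it, 12 of 35 tested genes were lower (9.65% of all genes) and 1 further gene higher at p under 0.05, with a median of -0.17. Kcna7, a voltage-gated potassium channel of muscle, was at 193, 141, 111, 158 and 150 CPM in KO and 241, 202, 199, 196 and 258 CPM in WT (-0.55, adjusted p = 0.257, limma), with no overlap. Casq1, the calcium store protein of the fast sarcoplasmic reticulum, was at 1385 and 1883 CPM. The count of 12 was 3 without W18S42 and K18S48 (3.73% of all genes) and 2 with libraries rescaled to a sum of 1 M (2.67%). Among 25 neuromuscular junction and denervation genes, 3 were higher and 1 lower. Chrnd, the delta subunit of the acetylcholine receptor, was at 3.88 and 2.42 CPM, and Rapsn, which clusters that receptor, at 19.9 and 26.5 CPM. Among 21 myogenic genes 1 was higher and 1 lower, and Pax7, the satellite cell factor, was at 2.004 and 3.10 CPM.

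Genes of the interferon response list, which includes MHC class I genes, lay mostly above 0 in KO against WT muscle at both ages. Of 40 tested genes in the interferon response list, 34 were above 0, and 8 (20%) were higher and 1 lower at p under 0.05, with a median of 0.30 (all genes 44.6% above 0, 7.05% higher and 9.65% lower). None was called by limma, while DESeq2 called 3 higher, H2-D1 (adjusted p = 0.000313), Tap1 (0.0132) and H2-K1 (0.0150), and 1 lower, Ifi35. Over all genes DESeq2 called 1% higher and 0.264% lower. H2-D1, a classical MHC class I gene, was at 182, 150, 177, 202 and 152 CPM in KO and 120, 130, 96.7, 107 and 124 CPM in WT (0.58, adjusted p = 0.134, limma), and H2-K1 at 156 and 106 CPM (0.56, adjusted p = 0.257), both without overlap. Tap1, the peptide transporter, was at 12.8, 10.5, 11.05, 10.6 and 6.23 CPM in KO and 5.48, 3.03, 3.89, 2.20 and 7.21 CPM in WT (1.12, adjusted p = 0.234), with K18S64 below W18S72. B2m, the light chain of MHC class I, was at 135 and 95.6 CPM (0.51, adjusted p = 0.257). Ifi35, an interferon-induced protein, went the other way, at 7.72 ± 1.20 and 11.1 ± 1.20 CPM (SD, n = 5 each) with no overlap (-0.48, adjusted p = 0.257 with limma and 0.0471 with DESeq2). In muscle at 5 months, whose libraries are not shared with the comparison at 20 months, the list had 34 of 40 genes above 0 and 14 higher at p under 0.05 (median 0.34), with H2-D1 at 0.73, H2-K1 at 0.86 and Tap1 at 1.20. Of all 13237 genes tested at 5 months, 375 were higher at p under 0.05, and the median was 0.01. Between the ages, 1 gene of the list differed at p under 0.05, against 3.31% of all genes. The list's median was 0.10 in old adipose tissue, with 30 of 40 genes above 0 and 6 higher at p under 0.05. In old liver it was 0.27, with 39 of 40 above 0 and 18 higher, against 801 of all 10739 genes there. Its member Psmb8 was called in old liver (limma). H2-Q4, which is not in the list, was called there too (0.61, adjusted p = 0.0110). That interferon element core occurred in the 250 bases before the start of 17 of 31 matched interferon response genes (54.8%), against 3.03% of the genes tested. The B2m window (chr2:122147437-122147686, plus strand) is shown with its copy in capitals, 139 bases before the start.
B2m: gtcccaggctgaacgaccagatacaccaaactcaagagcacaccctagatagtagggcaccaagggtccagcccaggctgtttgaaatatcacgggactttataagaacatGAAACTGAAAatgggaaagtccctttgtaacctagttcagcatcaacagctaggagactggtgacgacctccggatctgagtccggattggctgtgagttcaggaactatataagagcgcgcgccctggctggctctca

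Stress, growth and matrix lists are given by their counts at p under 0.05, where 7.05% of all genes were higher and 9.65% lower. Among 23 p53 targets 4 were higher and 5 lower. Ccng1, a p53-induced cyclin, was at 796 and 1093 CPM (-0.45, adjusted p = 0.257, limma) and Phlda3, which restrains Akt, at 498 and 658 CPM (-0.41), opposite in direction to Cdkn1a. Among 15 senescence and secretory genes 3 were higher. Ccl8, a monocyte chemokine, was at 3.91, 1.14, 2.21, 5.02 and 2.09 CPM in KO and 0.879, 0.606, 1.04, 0.250 and 0.406 CPM in WT (1.17, adjusted p = 0.234), without overlap. Cdkn2a, the senescence inhibitor locus, was below the filter at 0.07 and 0.04 CPM. The collagen and matrix list had 8 of 40 genes higher and 0 lower (median 0.14), with Fn1, fibronectin, at 75.5 and 40.1 CPM and Lama2, the laminin chain of the fibre's basement membrane, at 67.0 and 48.02 CPM. In the cell cycle list, 3 of 22 were higher and 2 lower, and Ccnd1, cyclin D1, was at 7.08 and 12.2 CPM (-0.73, adjusted p = 0.257). DNA repair had 8 of 44 lower and 0 higher, with Lig4 and Xrcc5 of end joining at 6.07 and 22.3 CPM in KO and 8.63 and 31.5 CPM in WT. In these lists DESeq2 called Ccl8 (adjusted p = 0.00125), Fn1 (0.0377) and Lamb1 (0.0421) higher, against 1% of all genes.

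Further lists are given against the same 7.05% higher and 9.65% lower of all genes. Insulin, IGF and mTOR signalling had 3 of 33 higher and 1 lower. Irs2, an insulin receptor substrate, was at 56.7 and 31.2 CPM, and Eif4e, the cap-binding translation factor, at 79.3 and 112 CPM (-0.49, adjusted p = 0.257, limma). Aminoacyl-tRNA synthetases had 3 of 22 lower, the spliceosome 3 of 58 lower and 1 higher, clock genes 2 of 21 lower, immediate early genes 3 of 21 higher and 1 lower, and the Bcl2 family 2 of 13 lower and 1 higher. Bid, a Bcl2 family member on chromosome 6, was below the filter at 0.75 and 0.90 CPM. Heat shock and unfolded protein genes had 3 of 39 lower, and Dnaja1, a co-chaperone, averaged 35.1 and 59.6 CPM. W18S41 was the WT library that stood out there, with Dnaja1 at 110 CPM.

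Markers of cells other than fibres are given as sums over each list, beside the shares of all genes above 0 (44.6%) and higher at p under 0.05 (7.05%). The latter share was 4.98% without W18S42 and K18S48. In bulk tissue, more cells of a type and more RNA per cell cannot be told apart. Macrophage markers were above 0 in 10 of 10 genes, with 6 higher at p under 0.05 (2 without W18S42 and K18S48), and summed to 122 to 296 CPM in KO and 56.9 to 166 CPM in WT, with overlap. Schwann cell and nerve markers did not overlap, at 120 to 134 CPM in KO and 60.5 to 114 CPM in WT, with 7 of 7 tested genes above 0 and 6 higher at p under 0.05 (4 without those libraries). Pmp22, a peripheral myelin protein, was at 44.6, 39.5, 39.1, 39.6 and 39.1 CPM in KO and 34.8, 20.8, 34.9, 25.7 and 28.5 CPM in WT. White adipocyte markers summed to 1149 to 2139 CPM in KO and 751 to 1164 CPM in WT, a narrow overlap, with 3 of 10 higher at p under 0.05. Brown adipocyte markers, with Ucp1 at 0 in all libraries, summed to 169 to 239 CPM in KO and 228 to 334 CPM in WT. Most of each sum was Cox7a1, which is also in the OXPHOS list, at 147 to 198 CPM in KO and 187 to 302 CPM in WT. T cell markers were scarce but did not overlap, at 1.55 to 3.98 CPM in KO and 0.541 to 1.52 CPM in WT, with Trac at 0 and no marker past the filter. Skin markers summed to 2.20 to 3.17 CPM in KO and 3.30 to 4.99 CPM in WT, with Krt5, Krt14 and Krt1 at 0, and the B cell genes Ighm and Igkc were at 0. Endothelial markers were above 0 in 8 of 8 genes (median 0.24) with 1 higher at p under 0.05. Endothelial, progenitor, tendon, smooth muscle and satellite cell sums overlapped between groups. The part of these cells in the differences of Ccl8, Lpl, Vwf, the matrix genes and the interferon response genes was not tested.

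**Figure D5:**
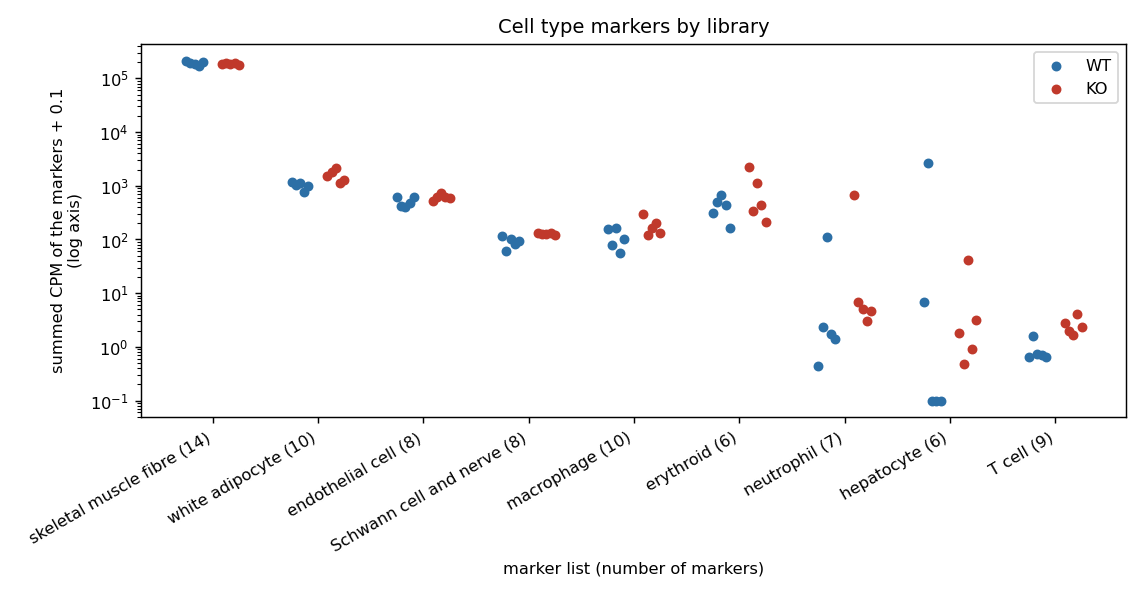
Summed CPM of each marker list plus 0.1, on a log axis, in the 5 WT libraries (blue) and 5 KO libraries (red), 1 point per library, with the number of markers in brackets. The Schwann cell sums do not overlap between groups, the hepatocyte sum of W18S42 is 2683 CPM, and the neutrophil sums of K18S48 and W18S45 are 677 and 113 CPM.

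Whether the KO effect in old muscle differed from that in young muscle was tested over 20 muscle libraries and 13237 genes. No gene was called for the difference by limma (0 of 13237, with 438 at an unadjusted p under 0.05, 3.31%) or by edgeR (0, with 496 at an unadjusted p under 0.05), and none for KO against WT at 5 months (0, with 543 at an unadjusted p under 0.05, 4.1%). The OXPHOS list had a median of 0.04 at 5 months with 28 of 77 genes below 0, and 11 of its genes had a difference between ages at p under 0.05. The mitochondrial and cytosolic ribosomal lists had medians of -0.03 and 0.03 at 5 months, and 7 of 78 and 0 of 79 genes differed between ages at p under 0.05. Ribosome biogenesis genes lay below 0 at 5 months as well, 44 of 48 with a median of -0.14. At that age 6 of them were lower at p under 0.05, against 168 of all 13237 genes. Glucocorticoid-induced genes had a median of 0.14 and atrophy genes 0.08, with 0 genes of either list at p under 0.05 at that age. Between the ages 1 of 20 and 1 of 34 differed at p under 0.05, against 3.31% of all genes. Slow fibre and Schwann cell lists had medians of 0.51 and 0.58 at 5 months and 0.50 and 0.47 at 20 months, where the slow fibre median was 0.20 without K18S48.

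Old muscle was also set against old liver and old adipose tissue, in a fit over 30 libraries and 10739 genes. In that fit 51 genes (0.475%) were called in old liver, 35 higher (0.326%) and 16 lower (0.149%), with 12.4% at an unadjusted p under 0.05. In old adipose tissue 16 were called (0.149%), 8 in each direction (0.0745%), with 7.27% at an unadjusted p under 0.05. The KO effect in muscle differed from that in liver in 35 genes (0.326%), 8 with a higher (0.0745%) and 27 with a lower value in muscle (0.251%), and from that in adipose tissue in 4 genes (0.0372%): Amotl2, Pth1r, Mycbp2 and Atp2a3. Amotl2 differed from both tissues, with fold changes of 0.998 in muscle, -0.33 in liver and -0.15 in adipose tissue (differences of 1.33, adjusted p = 0.0117, and 1.14, adjusted p = 0.0409, limma). Its call against adipose tissue was lost without K18S48, K18S61, K18S62, W18S41, W18S42 or W18S66, while that against liver held. Pth1r, the parathyroid hormone receptor, was at 4.84 and 1.81 CPM in KO and WT muscle (1.01) and differed by -0.31 in adipose tissue. Among the 27 were Tomm7 of the mitochondrial import pore (-0.42 in muscle and 1.34 in liver), Ndufs6 and Ndufa1 of complex I (-0.48 and -0.49 in muscle, 0.64 and 0.60 in liver), Romo1 of the inner membrane (-0.45 and 0.57) and Orai1, the store-operated calcium channel (-0.43 and 0.40). Over the list, 28 OXPHOS genes differed between muscle and liver and 20 between muscle and adipose tissue at p under 0.05, against 15.2% and 13.2% of all genes, and 2 and 0 were called. The number of calls against liver ranged from 1 (without K18S61) to 111 (without K18S64), and against adipose tissue from 0 (without K18S48, K18S61, K18S62 or W18S66) to 23 (without K18S64).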

How the data were processed

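Polyadenylated RNA from each tissue was sequenced as directional libraries on Illumina instruments after column extraction, per the labels' protocols. The deposited table gives, for 36333 gene entries and 64 libraries, a read signal that the authors scaled per library and headed CPM. The submitters' processing notes name the builds GRCm38.p6 and mm10, and the aligner, annotation and scaling are not given in the sources used here. All values were whole multiples of 1 read (100% in each library), so whole-read counts were recovered from the deposited signal. Symbols came by gene ID from RefSeq (GRCm38.p6): 35336 of 36332 IDs matched, and the other 996 held 0.068% of reads. No pair of libraries agreed within sampling noise.

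Genes above 1 CPM in at least 5 of the 10 libraries entered a limma fit (version 3.58.1, R 4.3.3) of log2(CPM + 1) with trended variances and Benjamini-Hochberg adjustment, and were called at an adjusted p under 0.05. edgeR 4.0.16 (quasi-likelihood) and DESeq2 1.42.0 on recovered counts, other scalings, filters and left-out libraries were alternatives. The age comparison used 20 muscle libraries, which the plan had miscounted. Fold changes of low genes are understated on this scale. The fits of KO against WT were tested on simulated data. The members and lists were chosen with earlier results of these data known. Named genes were fixed by name, by call, or by smallest p with no overlap and a mean of at least 5 CPM; up to 4 members a list were named by smallest p, and further members (Fbxo32, Trim63, Txnip, Fkbp5, Ddit4, B2m, Atp5g1, Mrps18c, Pmp22 and the genes of the tissue comparison among them) after their values were seen. Transcript length, the chromosome stretches and the joint removal of W18S42 and K18S48 were chosen after seeing the data.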

Additional observations from a re-analysis of the deposited data

Results flagged for a closer look

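The groups of 5 libraries were checked for a value far from the other 4. Of 92 groups checked, 5 were picked out, where chance picks about 1 in 20. Hepatocyte markers summed to 2683 CPM in W18S42, against 0 to 6.76 CPM in the other WT libraries. Neutrophil markers summed to 677.3 CPM in K18S48, against 2.95 to 6.79 CPM in the other KO libraries, and to 113.3 CPM in W18S45, against 0.338 to 2.24 CPM in the other WT libraries. T cell markers summed to 1.515 CPM in W18S42, against 0.541 to 0.638 CPM in the other WT libraries. Zfp36l1 was at 44.57 CPM in K18S63, against 53.2 to 57.1 CPM in the other KO libraries.

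The KO effect on Amotl2 differed between tissues by a test of the difference: by 1.33 between muscle and liver (adjusted p = 0.0117, limma) and by 1.144 between muscle and adipose tissue (adjusted p = 0.0409). The call against liver held without each muscle library in turn. The call against adipose tissue was lost without K18S48, K18S61, K18S62, W18S41, W18S42 or W18S66.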

How the results depend on the processing

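No paired analysis was possible because the codes of the KO and WT libraries share no replicate numbers. The 3 calls of KO against WT became 1 without a filter on low values, 1 without W18S42 and K18S48, 158 with DESeq2 on whole reads, and 2 to 6 when 1 library was left out. The direction of Max reversed without K18S62 (-0.024, against 0.07) and was highest at 0.13 without K18S64. The age difference had 0 calls whichever library was left out. Calls for muscle against liver ranged from 1 to 111 with 1 library left out (35 with all), and against adipose tissue from 0 to 23 (4 with all). Myc kept its direction under the alternatives run, with p-values of 0.159 to 0.627 (exact permutation tests, n = 4 or 5 per group). At 17.6 to 22.4 M reads per library, a count of 0 allows up to 0.150 to 0.203 CPM (3 reads), and Mycn, Mycl, Cdkn2a and Bid were too low to be tested. The extraction day, lane and muscle sampled are not given, so their part was not tested.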
